A study of Mus musculus with 6 samples.

Results

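The genes described here are the inhibitors that hold the cell cycle in G1 and the pocket proteins through which they act: the CIP/KIP inhibitors Cdkn1a and Cdkn1b, the INK4 inhibitors Cdkn2a, Cdkn2b, Cdkn2c and Cdkn2d, the retinoblastoma family members Rb1, Rbl1 and Rbl2, and Trp53, which encodes p53. They were chosen by symbol, and all 10 were found among the 22026 gene symbols of the deposited FPKM tables. RNA came from choroid endothelial cells (ECs) of 129/B6 mice at postnatal day 5 (P5), while the retina was still differentiating, and at postnatal day 30 (P30), when vision is mature and animals of both sexes were used, with 3 isolations per age and the RPE/choroid of 7 animals pooled in each. Animals of both ages received, while alive, an injected antibody against VE-Cadherin, which joins ECs to each other. P5 animals were anaesthetized by cold and received a smaller dose than P30 animals, so handling cannot be told apart from age. The dissected RPE/choroid was digested, and labelled cells were sorted by flow cytometry. Each value is thus an average over pooled animals and over all sorted cells, without separation of capillary, arterial and venous ECs or of cycling and resting cells, so a change in the share of cycling cells and a change in RNA per cell cannot be told apart.

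CIP/KIP proteins such as p21 (Cdkn1a) and p27 (Cdkn1b) bind complexes of cyclins and cyclin-dependent kinases (CDKs) and block CDK2 in particular, whereas INK4 proteins bind CDK4 and CDK6 alone and keep the D cyclins off them. When these kinases are inactive, pRb (Rb1), p107 (Rbl1) and p130 (Rbl2) stay bound to E2F factors and hold genes of DNA replication and mitosis silent. By textbook knowledge p130 is typical of resting cells and p107 of cycling ones, p107 is itself an E2F target, and p21 is the best known target of p53. Vascular growth in the young animal requires EC division, while mature vessels are mostly quiescent.

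Among these genes, Cdkn1a rose 16.7-fold in mean FPKM from P5 to P30, whereas Cdkn2c fell by 2.51 and Rbl1 fell by 1.32 on the log2 scale. In 17 alternative fits, an adjusted p under 0.01 was lost in 8 for Cdkn2c, in 2 for Rbl1 and in 0 for Cdkn1a. Cdkn1b, Rb1 and Rbl2 had P30 means that were higher by less than 1.5-fold, Trp53 had a lower P30 mean, and Cdkn2a was listed at an FPKM of 0 in all 6 isolations. Because FPKM is scaled by transcript length, levels were also compared between genes. At P5 the highest of the 10 genes was Trp53 (mean FPKM 212), and at P30 it was Cdkn1a (mean FPKM 1448), ahead of Cdkn1b at 233.

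The promoter sequences of the gene that rose most and of the pocket protein gene that fell are shown because each holds a motif of a factor of this pathway. Windows of 300 bases around RefSeq gene starts (build GRCm38.p6), most of each before the start, were available for 9 of the 10 genes, in 12 windows. Rb1 had no entry. Windows were searched on both strands for E2F sites (TTTCCCGC, TTTCGCGC, TTTGCCGC or TTTGGCGC), for the cell cycle homology region (CHR, TTTGAA or TTCGAA) and, with at most 1 mismatch and no spacer, for the p53 consensus of 20 bases. The E2F letters were in 2.26%, the CHR letters in 19.2% and the p53 consensus in 0.0883% of all 32851 windows. The 120 bases before the gene start are printed 5′ to 3′ on the strand of the gene, and capitals mark the match. Both stretches were found at a single place in mm9, the genome build of the data, and both end at the base before the GENCODE start of the gene. They are chr17:29227804-29227923 (plus strand) for Cdkn1a and chr2:157030271-157030390 (minus strand) for Rbl1.
Cdkn1a: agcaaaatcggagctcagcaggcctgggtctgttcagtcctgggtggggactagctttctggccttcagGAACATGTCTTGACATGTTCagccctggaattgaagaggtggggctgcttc
Rbl1: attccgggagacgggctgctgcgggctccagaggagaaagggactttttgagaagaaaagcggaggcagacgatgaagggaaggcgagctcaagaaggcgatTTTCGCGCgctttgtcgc
The p53 match of Cdkn1a lay between bases -51 and -32, counted from the start of its most upstream transcript, and had 1 mismatch. The E2F match of Rbl1 lay between bases -18 and -11. Beyond these, an E2F match was found in a window of Cdkn2a and a CHR match in those of Cdkn2b and Rbl2, whereas none of the searched letters were in the windows of Cdkn1b, Cdkn2c, Cdkn2d and Trp53. A match is a description of the letters and does not show that a factor was bound in these cells.

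Differences between ages were tested with limma on log2(FPKM + 1), a scale on which changes of low values are understated, over the 12481 genes that averaged an FPKM of 5 or more at P5 or at P30. A gene was called when its Benjamini-Hochberg adjusted p was under 0.01 and its mean FPKM + 1 differed 2-fold or more, which are the study's own limits. In what follows, rose and fell are used for a gene with an adjusted p under 0.01, and called is kept for those that also met the fold limit. Of all genes tested, 735 (5.89%) were called higher at P30 and 726 (5.82%) higher at P5, so that 50.3% of calls were higher at P30. This share was 37.1% when the FPKM of every isolation was rescaled to equal sums, a step that moved the median log2 difference of all genes from -0.10 to -0.27. Of the 10 genes, 8 passed the minimum FPKM, 1 was called higher at P30 (Cdkn1a) and 2 higher at P5 (Cdkn2c and Rbl1). With no fold limit, 8.51% of the genes tested rose and 10.7% fell, and Cdkn1b joined Cdkn1a among those that rose. The isolations of the ages did not overlap, in the sense of P30 being higher, for 4 of the 8 genes (22% of all genes tested), and in the sense of P5 being higher for 3 (33% of all genes tested). Nothing in the labels says whether isolations of an age came from different litters, so p-values measure the spread between these pools.

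**Figure D1:**
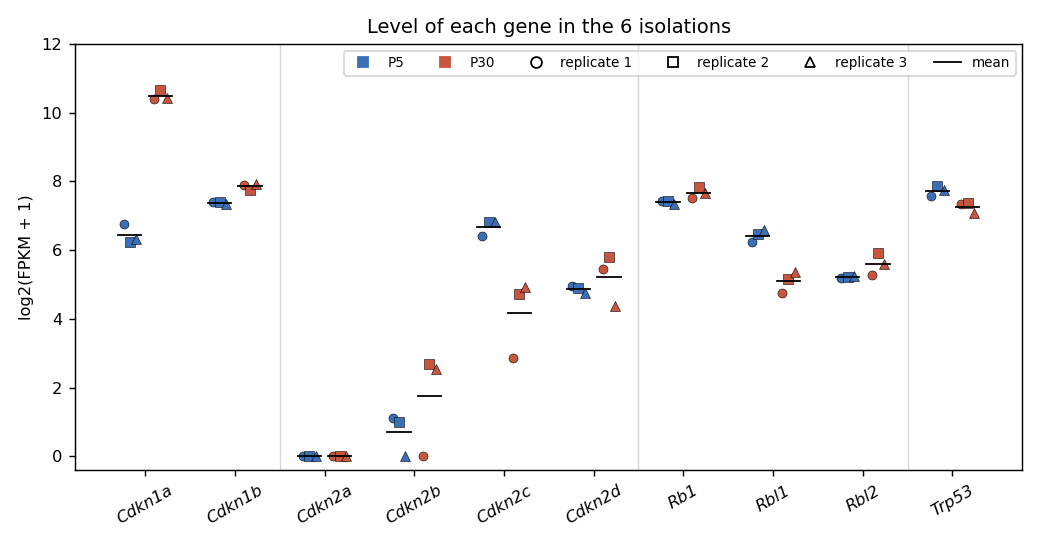
Level of the 10 genes in each isolation, as log2(FPKM + 1) on the vertical axis, with P5 in blue, P30 in red, a symbol shape for each replicate and a line at the mean of 3 isolations. Cdkn1a at P30 stands far above every other value, Cdkn2c and Rbl1 are lower at P30 without overlap, and Cdkn2a lies at 0 throughout.

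VE-Cadherin (Cdh5), the antigen of the sort, averaged 2971 ± 95.4 FPKM (SD, n = 3) at P5 and 1885 ± 52.4 at P30, and it fell (log2 difference -0.66, adjusted p = 0.00205 in limma). CD31 (Pecam1), also an EC adhesion protein, had 1611 ± 70.8 and 1421 ± 167. The summed FPKM of 8 EC genes was between 18049 and 18522 at P5 and between 24631 and 29965 at P30. Within this sum, Plvap averaged 4692 at P5 and 11590 at P30, and Emcn 3002 and 5523, whereas Cdh5 and Pecam1 had lower P30 means. Plvap and Emcn were named after their values had been seen. The sum is thus not a measure of EC content. Of the 8 EC genes, 4 were higher and 1 was lower at P30 without overlap, beside 22% and 33% of all genes tested. EC markers were thus high in every isolation. Genes of other cells were present too, and none of the 44 listed was at 0 in all isolations. The summed FPKM of 7 RPE genes was between 65.5 and 144 at P5 and between 495 and 3796 at P30. It was highest in P30 replicate 1, and all 7 genes were higher at P30 without overlap (22% of all genes tested). For 7 pericyte genes the sum was between 497 and 1765 at P5 and between 1872 and 6290 at P30. This sum was highest in P30 replicate 2, and 4 of the genes were higher at P30 without overlap. Sums at P5 and P30 were 2.21 to 8.49 and 41.8 to 370 for 8 photoreceptor genes, 76.2 to 134 and 199 to 848 for 4 smooth muscle genes, 725 to 1193 and 1776 to 4488 for 6 fibroblast genes, 97.0 to 457 and 120 to 1251 for 5 pigment cell genes, and 600 to 885 and 322 to 830 for 7 haematopoietic genes. The part of these cells in the differences below was not tested, and values without an isolation are given below where they change a call.

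Cdkn1a (ENSMUSG00000023067, chromosome 17, 29227924 to 29237667 of mm9), the gene of p21, had an FPKM of 107, 73.9 and 79.4 in P5 replicates 1, 2 and 3 and of 1338, 1625 and 1380.1 in P30 replicates 1, 2 and 3. The lowest P30 isolation was thus more than 10-fold above the highest of P5, and the 3 P30 isolations lay close to each other. Its log2 difference, P30 minus P5, was 4.06 (SE 0.16, adjusted p = 3.3e-05 in limma), the 53rd largest rise among 12481 genes. By mean FPKM it moved from place 4206 to place 113 of the 22026 genes. Leaving out each isolation in turn gave log2 differences between 3.95 and 4.22, with adjusted p between 0.000112 and 0.000689 in limma. In P30 replicates 1, 2 and 3 the RPE sum was 3796, 2109 and 495, beside 1338, 1625 and 1380.1 for Cdkn1a. Among the P30 isolations, replicate 2 was highest in Cdkn1a and also in the pericyte, smooth muscle and fibroblast sums, and lowest in the haematopoietic sum. Its EC sum was the lowest too, at 24631 against 29229 in replicate 1 and 29965 in replicate 3. Whether other cells had a part in the level of Cdkn1a was not tested.

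Cdkn1b (ENSMUSG00000003031, chromosome 6, 134870419 to 134875531 of mm9), which encodes p27, had an FPKM of 169, 169 and 160.2 at P5 and of 239, 216 and 243 at P30. The lowest P30 isolation exceeded the highest of P5, and the spread within each age was small. The log2 difference was 0.48 (SE 0.09, adjusted p = 0.00666 in limma), below the fold limit. It did not keep an adjusted p under 0.01 when P5 replicate 1 (0.0281), P5 replicate 2 (0.0349), P5 replicate 3 (0.0322), P30 replicate 1 (0.0143) or P30 replicate 3 (0.0134) was left out, or when FPKM was rescaled to equal sums (log2 difference 0.31, adjusted p = 0.0402 in limma).

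The remaining CIP/KIP gene, Cdkn1c, which encodes p57 and is imprinted, had an FPKM of 156, 182 and 131 at P5 and of 107, 167 and 159 at P30, and the ages overlapped (log2 difference -0.13, SE 0.20, adjusted p = 0.641 in limma). Summed over Cdkn1a, Cdkn1b and Cdkn1c, FPKM was 431, 424 and 371 at P5 and 1684, 2008 and 1782 at P30, a 4.46-fold higher mean. Cdkn1a made up 21.2% ± 3.72 (SD, n = 3) of this sum at P5, against 79.3% ± 1.74 at P30, and Cdkn1b 40.7% ± 2.21 and 12.9% ± 1.83. Such shares do not depend on how a library was scaled. For both genes the shares of the ages did not overlap (two-sided exact permutation p = 0.1, which is the smallest that 3 isolations against 3 allow).

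**Figure D2:**
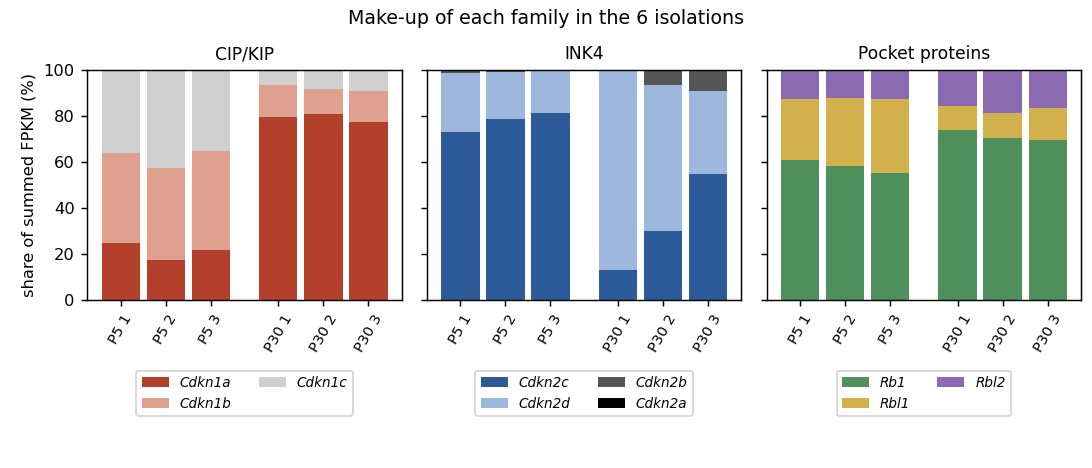
Stacked bars of the share of each gene, in percent of the summed FPKM of its family (vertical axis), for the 3 P5 and 3 P30 isolations (horizontal axis). Cdkn1a goes from 21.2% to 79.3% of the CIP/KIP sum, Cdkn2c from 77.6% to 32.4% of the INK4 sum with a wide spread at P30, and Rbl1 from 29.4% to 11.8% of the pocket protein sum.

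Among the INK4 genes, which bind CDK4 and CDK6, Cdkn2c and Cdkn2d were expressed at both ages, and Cdkn2a and Cdkn2b were low or listed at 0. Cdkn2c (ENSMUSG00000028551, chromosome 4, 109333481 to 109339794 of mm9), which encodes p18, had an FPKM of 84.4, 112 and 113 at P5 and of 6.33, 25.5 and 29.6 at P30. The ages did not overlap, and the P30 isolations differed among themselves by more than 4-fold, with P30 replicate 1 the lowest. Among the P30 isolations, replicate 1 had the highest RPE, photoreceptor, pigment cell and haematopoietic sums and the lowest pericyte and fibroblast sums. The log2 difference was -2.51 (SE 0.50, adjusted p = 0.00807 in limma), close to the limit of 0.01. It went past this limit when P5 replicate 1, 2 or 3 or P30 replicate 2 was left out (adjusted p = 0.0238, 0.0341, 0.0395 and 0.0131 in limma), and without P30 replicate 1 the log2 difference was -1.86 (adjusted p = 0.00100 in limma).

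Cdkn2d (ENSMUSG00000066860, chromosome 9, 21092907 to 21095653 of mm9), which encodes p19 of the INK4 family, had an FPKM of 30.2, 29.0 and 26.0 at P5 and of 43.3, 54.9 and 19.7 at P30. P30 replicates 1 and 2 were above and P30 replicate 3 below all P5 isolations, and the log2 difference was 0.34 (SE 0.35, adjusted p = 0.462 in limma). Without P30 replicate 3 it was 0.76 (adjusted p = 0.0169 in limma). P30 replicate 3 was also the isolation with the lowest RPE, photoreceptor, smooth muscle and pigment cell sums at P30.

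Cdkn2b (ENSMUSG00000073802, chromosome 4, 88952198 to 88956941 of mm9), which encodes p15, had an FPKM of 1.19, 0.99 and 0 at P5 and of 0, 5.45 and 4.88 at P30. It was below the minimum for the fit, and its ages overlapped (two-sided exact permutation p = 0.4). Its neighbour Cdkn2a (ENSMUSG00000044303, chromosome 4, 88920377 to 88940557 of mm9), a gene of senescence that encodes both p16 and, from another first exon, the p53 activator p19ARF, was listed at 0 in each isolation, and the symbol does not separate the transcripts. With no read counts, the level that such a 0 allows is not known.

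Cdkn2c took 77.6% ± 4.29 (SD, n = 3) of the summed INK4 FPKM at P5, against 32.4% ± 21.1 at P30, where the isolations had 12.8%, 29.7% and 54.7%. The ages did not overlap in this share (two-sided exact permutation p = 0.1, which is the smallest possible). Cdkn2d made up most of the rest, with 21.8% ± 3.83 and 62.5% ± 25.5. The INK4 sum itself was 116, 142 and 139 at P5 and 49.6, 85.8 and 54.1 at P30 (two-sided exact permutation p = 0.1), so that every P30 isolation had a lower INK4 sum, and a higher CIP/KIP sum, than every P5 isolation.

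Of the pocket protein genes, Rbl1 (ENSMUSG00000027641, chromosome 2, 156971629 to 157030270 of mm9), which encodes p107, had an FPKM of 74.9, 87.0 and 94.6 at P5 and of 26.2, 35.1 and 40.3 at P30. No P30 isolation reached the level of a P5 isolation, and the log2 difference was -1.32 (SE 0.18, adjusted p = 0.00187 in limma). Without P5 replicate 2 or P5 replicate 3, the adjusted p was 0.0135 and 0.0137. This is the gene with the E2F letters next to its start, shown above.

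Rb1 (ENSMUSG00000022105, chromosome 14, 73583480 to 73725629 of mm9), the retinoblastoma gene itself, had an FPKM of 171, 173 and 162 at P5 and of 183, 226 and 202 at P30. The P30 values were all higher, by a narrow margin for P30 replicate 1, and the difference did not pass (log2 difference 0.26, SE 0.11, adjusted p = 0.0894 in limma). Rbl2 (ENSMUSG00000031666, chromosome 8, 93593956 to 93647743 of mm9), which encodes p130, had 35.7, 36.1 and 36.9 at P5 and 38.1, 60.1 and 47.4 at P30. Here too the P30 values were all higher, with a wide spread, and the difference did not pass (log2 difference 0.39, SE 0.18, adjusted p = 0.125 in limma). On rescaling to equal sums, 2 of the 4 genes whose P30 values were all higher no longer separated the ages.

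Parts of these genes overlap others in the GENCODE annotation of mm9. Rb1 shares 408 exonic bases (6.78% of its own) with Lpar6, which lies within it on the other strand and had an FPKM between 189 and 293, and 488 bases with Rcbtb2, whereas Rbl2 shares 693 bases (9.95%) with Aktip. Whether strand was used in counting is not stated, so reads in these stretches cannot be assigned with certainty. The other 8 genes share no exonic base with another annotated gene.

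Summed over the pocket proteins, FPKM overlapped between the ages, with 282, 296 and 293 at P5 and 247, 321 and 289 at P30 (two-sided exact permutation p = 0.8). The shares within this sum did separate the ages. Rbl1 supplied 29.4% ± 2.85 (SD, n = 3) of the sum at P5, against 11.8% ± 1.83 at P30. Rbl2 had 12.5% ± 0.238 at P5 and 16.8% ± 1.68 at P30, and Rb1 had 58.1% ± 2.81 and 71.3% ± 2.30. Each of these shares separated the ages (two-sided exact permutation p = 0.1, which is the smallest possible). Rbl1 was above Rbl2 in every P5 isolation and below it in every P30 isolation.

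Trp53 (ENSMUSG00000059552, chromosome 11, 69393861 to 69405375 of mm9) showed FPKM values of 189, 234 and 213 at P5 and of 163, 164 and 135 at P30. All P30 values were lower, but the difference did not reach an adjusted p of 0.01 (log2 difference -0.46, SE 0.13, adjusted p = 0.0249 in limma). It did so when FPKM was rescaled to equal sums, at -0.63 (adjusted p = 0.00388 in limma). The gene of p53 thus had a lower mean at the age at which Cdkn1a was higher.

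**Figure D3:**
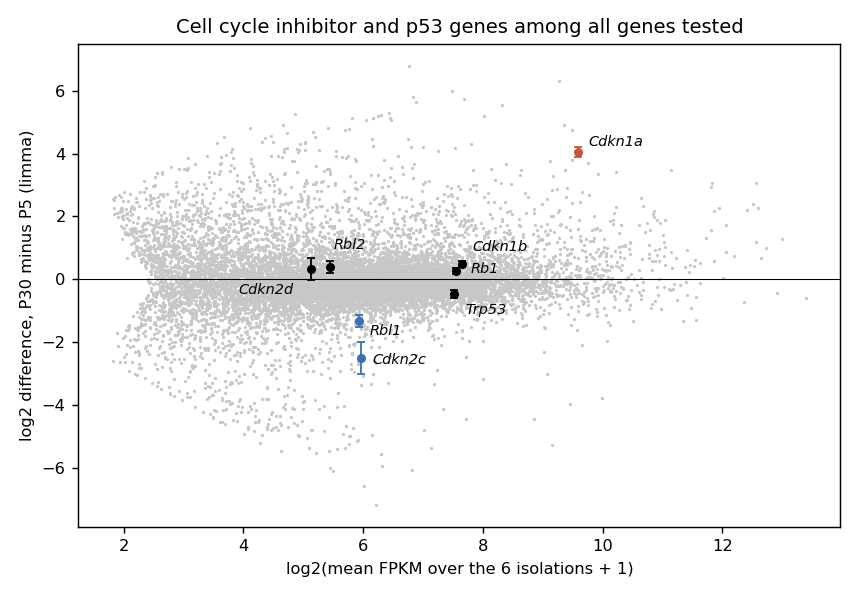
Log2 difference, P30 minus P5 (vertical axis, limma), against log2 of the mean FPKM over the 6 isolations plus 1 (horizontal axis), with all 12481 genes tested in grey and the 8 tested genes as points with standard errors. Cdkn1a (red, 4.06) lies above most genes at its level, Cdkn2c (-2.51) and Rbl1 (-1.32) are blue, and the 5 genes that were not called are black.

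The order of the levels changed between the ages. At P5, Trp53 was followed by Rb1 and Cdkn1b (mean FPKM 169 and 166), which overlapped, then by Cdkn2c, Cdkn1a and Rbl1 (103, 86.8 and 85.5), which also overlapped as neighbours, and then by Rbl2 (36.2) and Cdkn2d (28.4), each apart from its neighbours. Cdkn2b (0.727) overlapped with Cdkn2a. At P30, Cdkn1a led without overlap, Cdkn1b and Rb1 (233 and 203) overlapped, Trp53 (154) stood apart, and Rbl2, Cdkn2d, Rbl1 and Cdkn2c (48.6, 39.3, 33.9 and 20.5) followed, each overlapping with the next. Cdkn2b (3.44) again overlapped with Cdkn2a, which was last at both ages.

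The partners of these inhibitors were examined through 6 lists of genes named by function, 94 genes in all, of which 93 were tested. Counted once each, 7 were called higher at P30 and 37 higher at P5. In the list of cyclins, CDKs and CDK activators, 9 of 18 genes were called higher at P5 and 0 higher at P30, with a median log2 difference of -1.17, against -0.10 over all genes tested. Without P5 replicate 2, 6 of the 18 were called higher at P5. The largest falls were those of the mitotic genes Ccnb2 (log2 difference -5.92), Cdk1 (-4.97) and Ccnb1 (-4.94). Ccnd1, the D cyclin that growth signals induce and that INK4 proteins oppose, had an FPKM of 360, 354 and 511 at P5 and of 102, 92.2 and 112 at P30 (log2 difference -1.97, SE 0.16, adjusted p = 0.000284 in limma). The other D cyclins did not fall. Ccnd3 rose by a log2 difference of 0.50 (adjusted p = 0.00857 in limma) and Ccnd2 had 0.39 (adjusted p = 0.0226 in limma). These 2 genes were singled out after their values had been seen. Cdk4, the catalytic partner of the D cyclins, had an FPKM of 454, 511 and 496 at P5 and of 262, 261 and 242 at P30 and fell by 0.93 on the log2 scale (adjusted p = 0.000486 in limma), just short of the fold limit.

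The next list held E2F factors, Tfdp1, Tfdp2, the MuvB core, Mybl2 and Foxm1. In the DREAM complex, p107 or p130 is bound to E2F and to this core. Of the 17 genes, 8 were called higher at P5 and 0 higher at P30, with a median log2 difference of -0.78. Among the core genes, Lin9 was called (-2.58), whereas Lin37 (0.23), Lin52 (0.27), Lin54 (-0.66) and Rbbp4 (-0.57) were not. These core genes were singled out after their values had been seen. E2f1, an activator held by pRb, had an FPKM of 36.1, 41.9 and 46.9 at P5 and of 0, 1.31 and 0.56 at P30 (log2 difference -4.79, SE 0.37, adjusted p = 0.000245 in limma). E2f8, a repressor that peaks late in the cycle, was at 19.7, 31.6 and 39.3 at P5 and listed at 0 in all P30 isolations, and E2f2 fell by 3.67 on the log2 scale. In contrast, E2f4, the usual partner of p130 in resting cells, had 123, 135 and 136 at P5 and 129, 120.3 and 132 at P30, and the ages overlapped (log2 difference -0.05, SE 0.10, adjusted p = 0.733 in limma). E2f4 was also singled out after its values had been seen. Of 21 E2F target genes, 18 were called higher at P5 and 0 higher at P30 (median log2 difference -2.68), led by Pclaf (listed under an older Rik symbol, -6.56), Top2a (-6.06) and Mki67 (-5.56). Pcna, Ccne2 and Mcm7 were those not called and were named after their values had been seen. Pcna, the sliding clamp of replication and repair, had a log2 difference of 0.35 (adjusted p = 0.0582 in limma). Without P5 replicate 2, 5 of the 17 genes of the list with E2F factors and 13 of the 21 E2F target genes were called higher at P5.

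**Figure D4:**
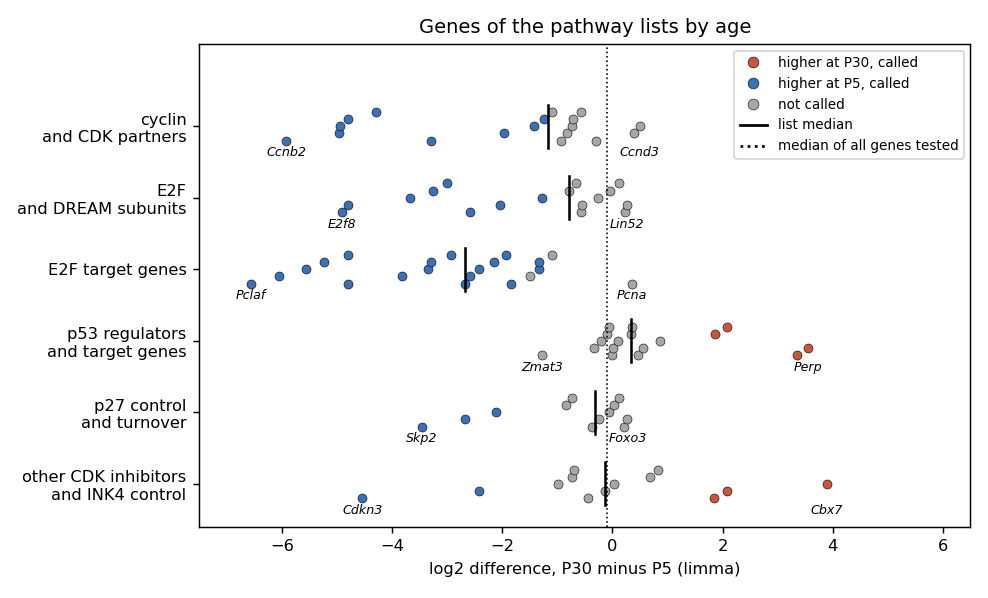
Log2 difference, P30 minus P5 (horizontal axis, limma), of each tested gene in the 6 pathway lists (rows), with called genes in red (higher at P30) or blue (higher at P5), the list median as a bar, the median of all genes tested (-0.10) as a dotted line, and the lowest and highest gene of each list named. The E2F target list lies furthest to the left, with 18 of 21 genes called, and only the p53 list and the list of other inhibitors hold red points.

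The list of p53 regulators and targets behaved differently among its own members, and Cdkn1a was not counted in it. Of its 17 tested genes, 4 were called higher at P30, 0 higher at P5 and 13 neither, with a median log2 difference of 0.34. Btg2, an antiproliferative gene that is also an early response gene, had an FPKM of 188, 157 and 164 at P5 and of 1663, 2159 and 1453 at P30 (log2 difference 3.35, SE 0.16, adjusted p = 6.2e-05 in limma), values of the same order as those of Cdkn1a. Fas, a death receptor, had 101, 112 and 99.3 at P5 and 576, 425 and 357 at P30 (log2 difference 2.08), and Perp, a protein of desmosomes, had at most 1.14 at P5 and between 10.6 and 18.1 at P30 (log2 difference 3.55). Pmaip1, which encodes the apoptosis factor Noxa, was the fourth, at a log2 difference of 1.86, and was named after its values had been seen. Mdm2, the ubiquitin ligase that degrades p53 and is itself a p53 target, had 124, 119 and 128 at P5 and 158, 174 and 144 at P30, with no overlap, and did not pass (log2 difference 0.35, SE 0.11, adjusted p = 0.0356 in limma). The 13 genes not called had log2 differences from -1.27 (Zmat3, adjusted p = 0.0211 in limma) to 0.87 (Gadd45a, adjusted p = 0.0236 in limma), and both of these separated the ages. Between them lay Ccng1 at -0.21 (adjusted p = 0.203 in limma), whose P30 values were all lower, and Bax, whose ages overlapped (adjusted p = 0.995 in limma). These 4 genes were named after their values had been seen. On rescaling to equal sums, 1 gene of the list was called higher at P5.

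**Figure D5:**
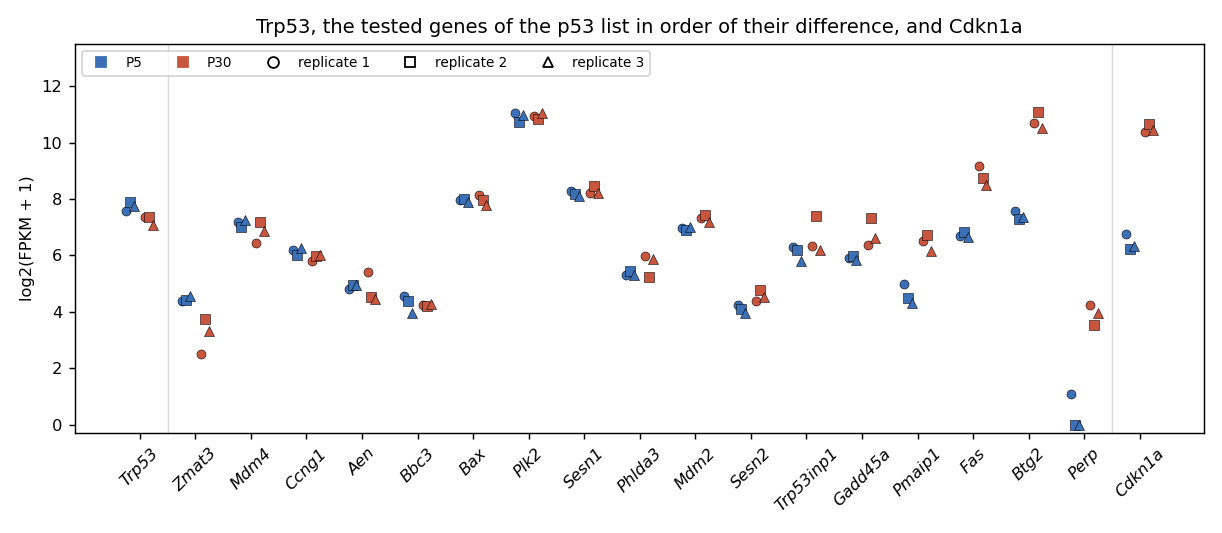
Level of Trp53, of the 17 tested genes of the p53 list in order of their log2 difference, and of Cdkn1a in each isolation, as log2(FPKM + 1) on the vertical axis, with P5 in blue, P30 in red and a symbol shape for each replicate. The called genes Pmaip1, Fas, Btg2 and Perp stand at the right end with Cdkn1a, and most of the others overlap between the ages.

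Among 12 genes that control p27, 3 were called higher at P5 and 0 higher at P30, with a median log2 difference of -0.31. Skp2, the F-box protein that marks p27 for degradation, had an FPKM of 26.5, 35.4 and 50.7 at P5 and of 0.91, 3.75 and 3.27 at P30 (log2 difference -3.46, SE 0.42, adjusted p = 0.00110 in limma). Cks1b, its cofactor, fell by 2.67 and Cks2 fell by 2.12 on the log2 scale, and with Skp2 these were the genes called. Fzr1, an activator of the anaphase-promoting complex, and Cdk2, which phosphorylates p27, also fell, by less than the fold limit (log2 difference -0.83 and -0.73, adjusted p = 0.00406 and 0.00628 in limma). Without P5 replicate 2, 1 gene of this list was called. The ligase subunits Cul1 and Rbx1 and the FOXO factors, which can induce Cdkn1b, were not called. Apart from Skp2, Cks1b and Cks2, the genes of this list were named after their values had been seen.

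In the list of other CDK inhibitors and of INK4 regulators, 3 of 13 genes were called higher at P30 and 2 higher at P5, and the median log2 difference was -0.13. Cdkn3, a phosphatase that acts on CDK2, had 19.7, 24.0 and 23.2 at P5, with 0 listed for each isolation of P30. Ezh2, the methyltransferase of Polycomb complex PRC2, fell from 69.3, 78.5 and 99.9 to 12.5, 13.7 and 17.7, whereas Cbx7, a PRC1 subunit known to silence Cdkn2a, rose from 6.16, 3.30 and 7.26 to 87.9, 97.0 and 93.6 (log2 difference 3.89, SE 0.26, adjusted p = 0.000156 in limma). Tbx2 and Id1, both known as repressors of Cdkn2a, were the other genes called higher at P30, at 1.85 and 2.09. They were named after their values had been seen. Cdkn2a was at 0 at both ages, so no change in it could be read from these data.

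Profiles most like those of the 3 called genes were looked up by the root mean square difference of log2(FPKM + 1), centred for each gene on its mean over the 6 isolations, among the 12480 other genes tested. For Cdkn1a these were Mal, a lipid raft protein, at 0.216 and Rasd1, a Ras-like GTPase known to be induced by dexamethasone, at 0.230. Rasd1 had an FPKM of 145, 90.5 and 131 at P5 and of 1404, 1984 and 1408 at P30. For Cdkn2c they were Cks1b (0.147), which had 109, 122 and 143 at P5 and 7.94, 24.6 and 31.8 at P30, and the mitotic kinesin Kif18a (0.238). Rbl1 was followed most closely by Ppp2r3c, a regulatory subunit of protein phosphatase 2A, and the kinetochore gene Cenpt (0.0710 and 0.0781). With 6 isolations in 2 groups, likeness is set mainly by the size of the difference between ages.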

How the data were processed

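RNAseq was carried out by the authors on sorted choroid ECs. Reads were aligned to mm9 with TopHat at default settings, and FPKM was computed by the authors with CuffLinks, using GC and upper quartile normalization, so that levels are relative within a library; the deposited tables hold FPKM for 22026 symbols per isolation. The submitters' processing notes name CASAVA 1.8.2, FastQC, TopHat and Cufflinks. The annotation and the other versions are not given in the sources used here. Low FPKM values showed no common step between samples (at most 2.99% of ratios in a bin of 0.05 log2), so depth is unknown and no counting error is given. The 15 pairs of samples held no identical tables.

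Groups and replicate numbers came from sample titles. Tests used limma 3.58.1 under R 4.3.3, by a linear model with empirical Bayes moderation, a mean-variance trend and no block, on log2(FPKM + 1), with Benjamini-Hochberg adjustment over all 12481 genes tested. The study's DESeq2 test needs read counts, which were not used here. The code was tested on simulated data. Shares were compared by exact permutation. Figures and promoter searches used Python 3.11.15 with pandas 2.3.3, numpy 2.4.6 and matplotlib 3.10.9. Positions are those of GENCODE M1 on mm9, and promoter sequences those of RefSeq on GRCm38.p6. Named genes were the 10 genes, the 3 largest differences of each list, Mdm2, Skp2, Cdkn1c, Ccnd1, Cdk4 and E2f1, the 2 profiles most like each called gene, Cdh5 and Pecam1, and other genes are marked in the text. The top gene of each list of other cells is given only within its sum, except Lyz2. Genes and lists were chosen with earlier results of these data known. Alternatives were other pseudocounts, minimum FPKM values, variance models and scalings, fold from the limma coefficient, a replicate block, and each isolation left out.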

Additional observations from a re-analysis of the deposited data

How the results depend on the processing

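Cdkn1a was called higher at P30 under each of 17 alternatives. The 2 genes called higher at P5 became 1, by loss of Cdkn2c, with a pseudocount of 0.1, no minimum FPKM, no trend or a robust trend, and 0 to 2 when an isolation was left out (0 without P5 replicate 2 or P5 replicate 3). At an adjusted p under 0.01 with no fold limit, the 2 genes higher at P5 also became 1 under those 4 settings and 0 to 2 on leaving out an isolation, and the 2 higher at P30 became 1 with no trend, quantile normalization, rescaling to equal sums, the replicate block or, at the lowest, without an isolation (1 to 2). Genes without overlap and higher at P30 went from 4 to 2 on rescaling to equal sums. Calls over all genes ranged from 396 to 849 higher at P30 and from 291 to 754 higher at P5 when an isolation was left out, the lowest without P5 replicate 2 or P5 replicate 3. Alternatives for single genes were run on those named by rule, and among these the log2 differences that changed sign were those of Cdkn1c (-0.24 to 0.077, the latter without P30 replicate 1) and of the macrophage gene Lyz2 (-0.14 to 0.67, with -0.05 without P5 replicate 3), on leaving out isolations.

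Nothing in the labels says that isolations of the same number share more than that number. Their deviations from the age means had correlations of -0.0618, -0.0905 and -0.0305, against -0.0273 to 0.104 for pairs of different numbers. With 3 isolations per age, such values cannot show whether a day or a litter was shared. With the replicate block, 585 genes were called higher at P30 and 524 higher at P5, 1 and 2 of the 10 genes were called as before, and Cdkn1b had an adjusted p of 0.0261 in limma. FPKM without read counts limits what can be said of low genes such as Cdkn2a and Cdkn2b.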
